A study of Mus musculus with 8 samples.

Results

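The proteasome subunit genes were followed in open chromatin maps of mouse dendritic cells that carry CD8 and had received no stimulus. The members are the protein-coding genes whose symbol is Psma, Psmb, Psmc, Psmd, Psme, Psmf or Psmg followed by a digit, without the immunoproteasome genes Psmb8, Psmb9 and Psmb10. This rule took 48 of 21631 coding genes on the autosomes and X of the mouse annotation, and it used no measured value. Psmc3ip, which encodes a meiotic recombination factor, and Psme3ip1, which encodes a partner of the activator Psme3, carry matching symbols without being subunits and were kept as the rule has them.

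The proteasome is the barrel-shaped protease that degrades ubiquitin-tagged proteins in the cytosol and nucleus. Its core is a stack of alpha and beta rings with the active sites inside, and regulatory particles at the ends of the barrel recognise, unfold and feed in substrates. In dendritic cells it also cuts proteins into the peptides that are loaded onto MHC class I, and dendritic cells that carry CD8 in the mouse spleen are known for presenting captured antigen in this way. Most subunits are needed in every cell.

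The series holds 8 samples, of which the 2 ATAC-seq samples were used here. ATAC-seq marks accessible DNA by letting a transposase cut and tag it in nuclei. Both samples were cultured CD8-positive dendritic cells that received no stimulus, with no genotype, sex or age given. The labels call them splenic dendritic cells in 1 field and a cell line in another, so a line may be what was used. The other 6 samples, ChIP-seq for IRF3, IRF5 and IRF9 after 90 min of stimulation, were not analysed here.

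Replicate 1 listed 50950 peaks over 8.71 Mb and replicate 2 listed 58319 over 11.2 Mb, with medians of 16 and 22 reads at the summit. The lowest listed values were 7 reads at the summit in replicate 1 and 9 in replicate 2. Reads below are those at the summit. A gene without a peak therefore had none that was detectable at this depth. Of 13 marker genes of the labelled cell type, 8 (61.5%) had a peak region shared by both replicates at an end. The share in all coding genes was 47.8%. Itgax, Flt3, Irf8 and Xcr1 were among the 8. Batf3, Itgae, Zbtb46, Clec9a and Cd8a itself had none. The macrophage and monocyte list had 4 of 5 such genes, T cell and plasmacytoid lists 2 of 5 each, B cell and erythroid lists 1 of 5 each, and NK cell and neutrophil lists 0 of 5. These short lists were not tested against the share in all coding genes, and an end region does not measure expression. What other cells contribute to the values below was not tested.

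A region is called shared here when peaks of both replicates overlap by at least 1 bp, and it lies at an end of a gene when it reaches within 1 kb of the outermost start or end in the annotation. Coordinates are those of mm10. Fold enrichment is the authors' value for each peak, reads at the summit over the local background of the same library. Values are given as replicate 1 and then replicate 2, and with 1 group of 2 samples no test between conditions was possible.

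The stretches of 150 bases just before the transcription start show what these promoters look like, read 5′ to 3′ in the direction of transcription from the RefSeq promoters of GRCm38.p6. Capitals mark letters that match a motif searched here, on either strand. The first pair belongs to the members with the most enriched end regions, by the mean of both replicates, that have such a stretch to print, the ATPase gene Psmc4 (chr7:28050093-28050242, minus strand) and the alpha ring gene Psma5 (chr3:108256776-108256925, plus strand). Psmc4 holds GGGCGG, the box of SP and KLF factors, on both strands and a YY1 match, whereas Psma5 holds no match in this stretch.
Psmc4: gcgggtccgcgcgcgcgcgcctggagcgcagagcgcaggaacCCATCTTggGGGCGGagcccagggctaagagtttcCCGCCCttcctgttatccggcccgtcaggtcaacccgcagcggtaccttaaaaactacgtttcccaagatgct
Psma5: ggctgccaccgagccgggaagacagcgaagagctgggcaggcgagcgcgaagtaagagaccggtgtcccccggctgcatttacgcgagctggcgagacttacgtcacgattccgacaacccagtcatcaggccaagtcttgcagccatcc

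The next pair comes from the members with the least enriched end regions, by the same mean, among those with a shared region at their start, the assembly chaperone gene Psmg3 (chr5:139826895-139827044, minus strand) and the scaffold gene Psmd1 (chr1:86064469-86064618, plus strand). Psmg3 shows no match in this stretch, and Psmd1 shows TATAAA, the letters of a TATA box, at -122 bases from the start, far from where such a box usually sits.
Psmg3: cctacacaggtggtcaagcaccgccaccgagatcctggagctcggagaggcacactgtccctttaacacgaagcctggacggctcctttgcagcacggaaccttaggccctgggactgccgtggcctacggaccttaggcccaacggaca
Psmd1: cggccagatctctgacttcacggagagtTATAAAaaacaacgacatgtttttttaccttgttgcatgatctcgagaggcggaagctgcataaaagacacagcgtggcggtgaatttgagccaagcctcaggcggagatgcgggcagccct

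The last set carries the motifs discussed with the promoter results. Psmd11 (chr11:80428465-80428614) and Psmd12 (chr11:107479378-107479527), both on the plus strand, hold the ETS motif on the opposite strand at -11 and -17 bases from the start. Psma2 (chr13:14613092-14613241, plus strand) holds NRF1 matches and a CCAAT box. Psmb5 (chr14:54617996-54618145, minus strand) holds the pattern of the element bound by NFE2L1 and NFE2L2.
Psmd11: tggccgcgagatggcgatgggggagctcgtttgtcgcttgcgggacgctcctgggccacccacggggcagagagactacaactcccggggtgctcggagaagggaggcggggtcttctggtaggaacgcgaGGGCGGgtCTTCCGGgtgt
Psmd12: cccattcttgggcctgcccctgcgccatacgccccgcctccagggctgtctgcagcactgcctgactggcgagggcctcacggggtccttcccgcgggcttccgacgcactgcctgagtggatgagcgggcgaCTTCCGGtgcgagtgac
Psma2: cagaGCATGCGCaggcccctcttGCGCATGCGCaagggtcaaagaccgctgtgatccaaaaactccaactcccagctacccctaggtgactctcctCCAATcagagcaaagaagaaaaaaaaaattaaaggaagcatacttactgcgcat
Psmb5: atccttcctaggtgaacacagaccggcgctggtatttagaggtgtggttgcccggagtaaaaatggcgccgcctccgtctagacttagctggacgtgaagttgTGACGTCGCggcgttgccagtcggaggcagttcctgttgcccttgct

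Nearly all proteasome genes were accessible at an end. A shared region lay at an end of 43 of the 48 members (89.6%), against 47.8% of all coding genes tested the same way. The same 43 genes had a peak at an end in replicate 1 alone and in replicate 2 alone. Of the 40 members with a transcription start in the promoter table, 38 (95%) had a shared region within 1 kb of it, against 49.3% of coding genes. Counting either place, 45 of 48 members had one, against 50.9% of coding genes.

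The strength of these regions was ordinary. The median fold enrichment of the highest scoring end region was 8.51 and 8.90 over the 43 members, and 8.10 and 8.42 over the 10348 coding genes that had such a region. The members' values ran from 5.05 to 12.2 in replicate 1 and from 4.98 to 14.7 in replicate 2. The median summit held 21 and 30 reads in members, and 23 and 33 in all coding genes with an end region. What set the members beside other coding genes was thus how many had a region, while the height of the regions lay close to the median.

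The replicates gave a similar order of members. Replicate 2 was higher in 23 members and replicate 1 in 20. In all coding genes with an end region, replicate 2 was higher in 58.4%. The median difference between replicates, regardless of sign, was 0.965 in fold enrichment, against 0.975 in all coding genes with an end region. Spearman's rho between the replicates was 0.667 across the 43 members and 0.763 across all such genes, a description across genes, which are not independent replicates. In both replicates 20 members lay above the median of coding genes and 12 lay below it, and the remaining 11 changed side.

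**Figure D1:**
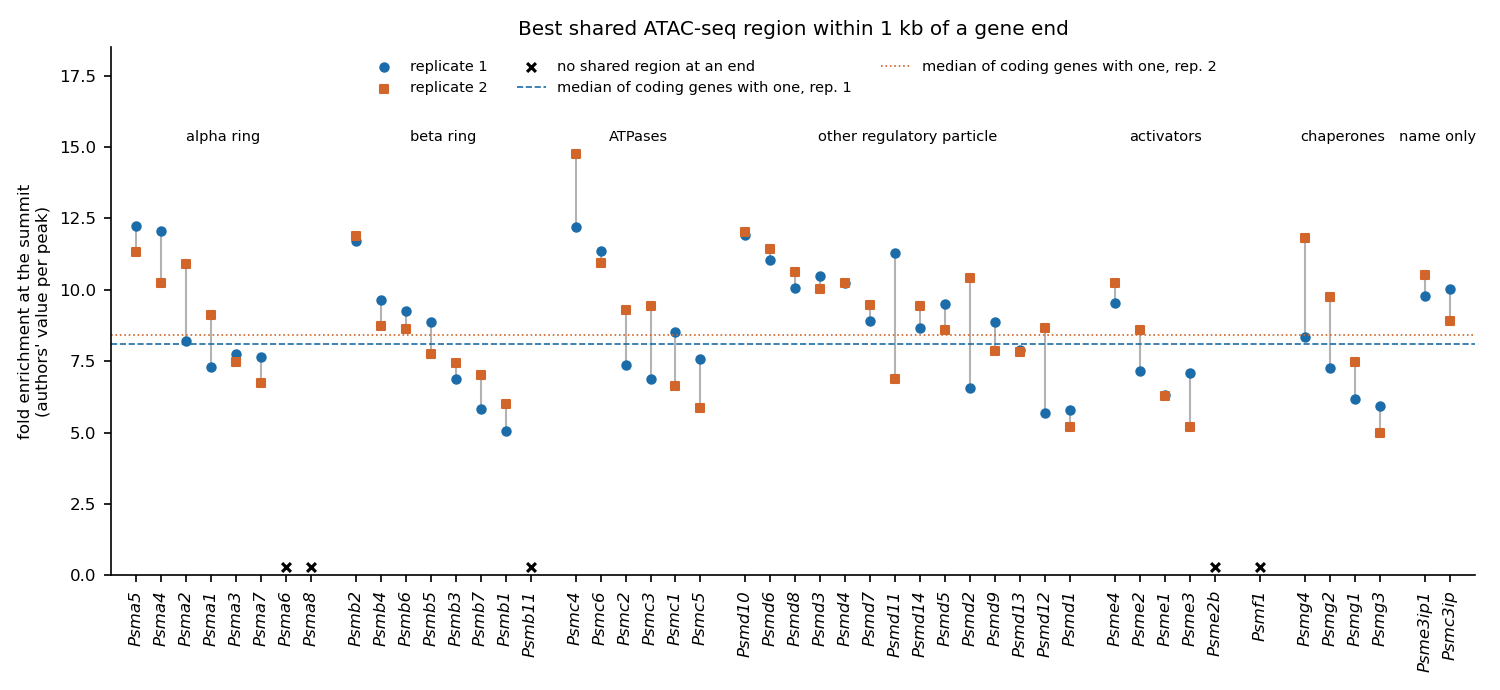
Fold enrichment of the highest scoring shared region within 1 kb of an end of each proteasome gene, with 1 point per replicate, members ordered by role and crosses for the 5 members without such a region. The dashed and dotted lines are the medians of coding genes with an end region (8.10 and 8.42), and members of every large role lie on both sides of them.

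The alpha ring, which forms the outer rings of the core and gates entry into it, had an end region in 6 of 8 genes, with median fold enrichments of 7.98 and 9.67. Psma5 led with 12.2 and 11.3, on 41 and 52 reads, in a region at chr3:108256788-108257238 whose score lay above 99.2% and 97.4% of the peaks of the lists. Psma4 followed with 12.1 and 10.2 in a region that also lies at an end of AY074887 and Hykk. Psma2 had 8.21 and 10.9 in a region it shares with the mitochondrial ribosome gene Mrpl32. Psma5, Psma4 and Psma2 were the alpha ring genes above the median of coding genes in both replicates.

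Psma1 had 7.29 and 9.10. The lowest of the ring by the mean of both replicates were Psma3, with 7.75 and 7.48, and Psma7, with 7.66 and 6.72. Psma7 lies back to back with Ss18l1, and both take the same region. The end region of Psma3 was not at the start used in the promoter table, where a region of its own inside the gene had 9.56 and 8.21.

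Psma6 and Psma8 were the alpha ring genes without an end region. Psma6 was nevertheless accessible inside the gene, where a listed start on chr12 at 55398825 lay in a shared region with fold enrichments of 10.7 and 13.2 and 34 and 60 reads. Its outermost listed start, at 55384222, had none, and the closest shared region (10.4 and 11.7) lay 5563 bp into the gene. Psma8, a subunit of the testis, had its closest shared region 7330 bp inside the gene, with 7.76 and 6.59.

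The beta ring, which carries the active sites, had an end region in 7 of 8 genes, with medians of 8.87 and 7.74. Among the catalytic subunits, Psmb6, of the caspase-like site, had 9.25 and 8.61. Psmb5, of the chymotrypsin-like site, had 8.87 and 7.74. Psmb7, of the trypsin-like site, had 5.83 and 7.03 on 12 and 21 reads, among the lowest of the ring. By fold enrichment, the subunits that give way to immunoproteasome subunits thus ranked in the same order in both replicates, with Psmb7 below the median of coding genes in each.

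Among the structural beta subunits, Psmb2 was the highest of the ring with 11.7 and 11.9, in a region at chr4:126677435-126677743. Psmb4 had 9.64 and 8.72, on 30 and 36 reads. Psmb3 had 6.87 and 7.43 in a region also at an end of Pcgf2. Psmb1 was the lowest with 5.05 and 6.02, although its 18 and 32 reads were close to the members' medians of 21 and 30, since fold enrichment is relative to the local background.

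Psmb11, the beta subunit of the thymus, had no end region. Its closest shared region lay 1176 bp away, with 6.56 and 8.78, and belongs by position to an end of Cdh24. The gene sits beside Psmb5, so the regions counted within 50 kb of either gene are the same 11.

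All 6 genes of the ATPases that unfold substrates had an end region, with medians of 8.04 and 9.36. Psmc4 had the highest value of any member in replicate 2, 12.2 and 14.7 on 27 and 43 reads, in a region at chr7:28050012-28050366. Psmc6 had 11.4 and 10.9. The other ATPase genes lay below the median of coding genes in at least 1 replicate.

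Psmc2 had 7.35 and 9.28 where it borders Dnajc2, and a second listed start inside the gene had a region of its own with 8.00 and 8.51. Psmc3 had 6.87 and 9.43. Psmc1 had 8.51 and 6.62. The lowest ATPase gene by the mean of both replicates was Psmc5, with 7.57 and 5.87 in a region also at an end of Ftsj3, and the region that covers its own start had 5.81 and 5.04.

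The other genes of the regulatory particle were accessible without exception, 14 of 14, with medians of 9.19 and 9.45. Psmd10, an assembly chaperone of the ATPase ring also known as gankyrin, had 11.9 and 12.0 in a region on the X chromosome at chrX:140956635-140957021. The sequence just before the Psmd10 start lies within another gene, Atg4a, so the region can belong to either. Psmd6, a lid subunit, had 11.03 and 11.4. Psmd10 and Psmd6 were the highest of the group by the mean of both replicates.

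The ubiquitin receptor gene Psmd4 had 10.2 and 10.2, on 34 and 47 reads. Psmd14, the deubiquitinase that removes ubiquitin chains from substrates, had 8.67 and 9.44, and its partner Psmd7 had 8.90 and 9.45. Psmd3 and Psmd8, of the lid, had 10.5 and 10.0, and 10.1 and 10.6, respectively. These 5 genes lay above the median of coding genes in both replicates.

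The widest disagreement between replicates was at the lid gene Psmd11, with 11.3 and 6.87, a difference of 4.40 on 25 and 19 reads. Psmd2, a scaffold subunit, went the other way with 6.55 and 10.4 on 12 and 27 reads. Psmd12 did likewise with 5.69 and 8.65 on 12 and 25 reads. The ranks of these members cannot be read from a single replicate.

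The remaining chaperones of the ATPase ring were moderate, Psmd5 with 9.49 and 8.60 and Psmd9 with 8.86 and 7.87. Psmd13 had 7.90 and 7.83 in a region at its border with the mitochondrial deacetylase gene Sirt3. Psmd1, a large scaffold subunit of the particle, was the lowest of the group by the mean of both replicates, with 5.81 and 5.21, and the region over its start had 4.67 and 5.16.

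The activators, which open the core without ATP, had an end region in 4 of 5 genes, with medians of 7.11 and 7.43, below those of coding genes. Psme4, the nuclear activator that binds a core end as a monomer, was the highest with 9.53 and 10.2. Psme2, an interferon-inducible activator subunit, had 7.14 and 8.58 in a region shared with Rnf31, and 6.99 and 7.30 over its own start. Its partner Psme1 had 6.30 and 6.29 in a region also at an end of Emc9, and 5.70 and 6.64 over its start. Psme3, the nuclear relative of this pair, had 7.07 and 5.21. The pair known to respond to interferon was thus accessible at its starts without stimulation.

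Psme2b, a Psme2-like gene, had no end region, and its closest shared region lay 21240 bp away. No source used here says whether reads that fit several near-identical copies were kept, so this absence is uncertain. The inhibitor gene Psmf1 had none at its outermost ends, but its listed start on chr2 at 151741310 lay in a shared region with 5.02 and 8.81 on 9 and 23 reads. In replicate 1 that peak stood near the floor of the list, above only 5.78% of peaks by score.

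All 4 chaperones that assemble the core had an end region, with medians of 6.72 and 8.61. Psmg4 had 8.34 and 11.8, and Psmg2 had 7.28 and 9.73 in a region also at an end of Cep76. Psmg1 had 6.16 and 7.49 in a region at its border with Brwd1. Psmg3 was the lowest with 5.95 and 4.98, the latter being the lowest replicate 2 value of any member. The non-subunits Psmc3ip, with 10.0 and 8.90, and Psme3ip1, with 9.79 and 10.5, were above the median of coding genes in both replicates, and their regions also lay at ends of other genes, Retreg3 and Rspry1 among them.

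The 3 immunoproteasome genes, which replace catalytic beta subunits in immune cells, also had an end region. Psmb8 had 9.69 and 7.35, Psmb9 had 5.69 and 6.96, and Psmb10 had 5.18 and 6.02. Set against the constitutive subunits they replace, Psmb8 compares with 8.87 and 7.74 for Psmb5, Psmb9 with 9.25 and 8.61 for Psmb6, and Psmb10 with 5.83 and 7.03 for Psmb7. By fold enrichment, which is relative to the local background, Psmb9 and Psmb10 were the lower of their pair in both replicates. Psmb8 and Psmb5 changed order. The gaps in fold enrichment of Psmb8 and Psmb10 to their counterparts were of about the size of the median difference between replicates (0.965) or smaller. Reads at the summit were higher in the immunoproteasome gene of every pair in both replicates. They were 44 and 39 for Psmb8 against 18 and 19 for Psmb5, and 26 and 39 for Psmb9 against 18 and 21 for Psmb6. Psmb10 had 18 and 28 against 12 and 21 for Psmb7.

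Other genes of the pathway showed the same pattern. Of 23 genes found by symbol among 24 listed, 21 (91.3%) had an end region, against 47.8% of coding genes. Their medians were 8.24 and 8.50, against 8.10 and 8.42 in coding genes with an end region. The ubiquitin receptor gene Adrm1 had 10.3 and 12.1, the assembly factor gene Pomp had 8.69 and 7.38, and the small lid subunit gene Sem1 had 8.24 and 8.55. Nfe2l1, the transcription factor that raises proteasome genes when the proteasome is inhibited, had 8.72 and 9.86, and its relative Nfe2l2 had 8.54 and 11.04. Fbxo7 and Ecpas had no end region, though both had a shared region at a listed start.

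Other large complexes found in every cell gave similar counts. Cytosolic ribosomal protein genes had an end region in 74 of 81 cases (91.4%), with medians of 7.47 and 7.70, and nuclear oxidative phosphorylation genes in 94 of 109 (86.2%), with medians of 8.76 and 8.997. The proteasome's 89.6% lay between these lists, and so did its medians of fold enrichment. Its median reads at the summit, 21 and 30, were below the 23.5 and 32.5 of the ribosomal list. They were also below the 24 and 33 of the oxidative phosphorylation list.

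Accessible regions lay close to the starts. In each of the 38 members with a shared region near a listed start, the closest such region covered a start, against 84.9% of 8510 coding genes. Its summit lay at a median of -29.5 bp in replicate 1 and -28.5 bp in replicate 2, negative values being upstream, against -47 and -46 bp in coding genes. The summit was within 100 bp of the start in 31 and 35 members of 38, against 63.3% and 64.6% of coding genes. The regions were 133 to 783 bp wide, with a median of 292 bp against 296 bp in coding genes. Taking the closest region favours one that covers the start. With the highest scoring region within 1 kb instead, 34 of 38 members had a start covered. Its summit lay at medians of -37 and -35.5 bp, within 100 bp in 27 and 31 members, nearer to the coding values. Coding genes were summarised by a single choice of region, so these comparisons are approximate.

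Summits of the replicates lay a median of 16 bp apart. They were upstream of the start in 25 and 26 members of 38, against 72.4% and 74.1% of coding genes. At Psmg4 they lay at 4 and 0 bp, and at Psmb5 at -36 and -34 bp. Among those far upstream were Psma2, at -202 and -129 bp, and Psma4, at -188 and -204 bp, both in regions shared with a neighbouring gene, and Psmc6, at -147 and -164 bp. The farthest downstream was at Psma5, at 71 and 85 bp. In Psmd1, Psme3, Psmc5 and Psme2 the region over the start was not the highest scoring region within 1 kb.

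**Figure D2:**
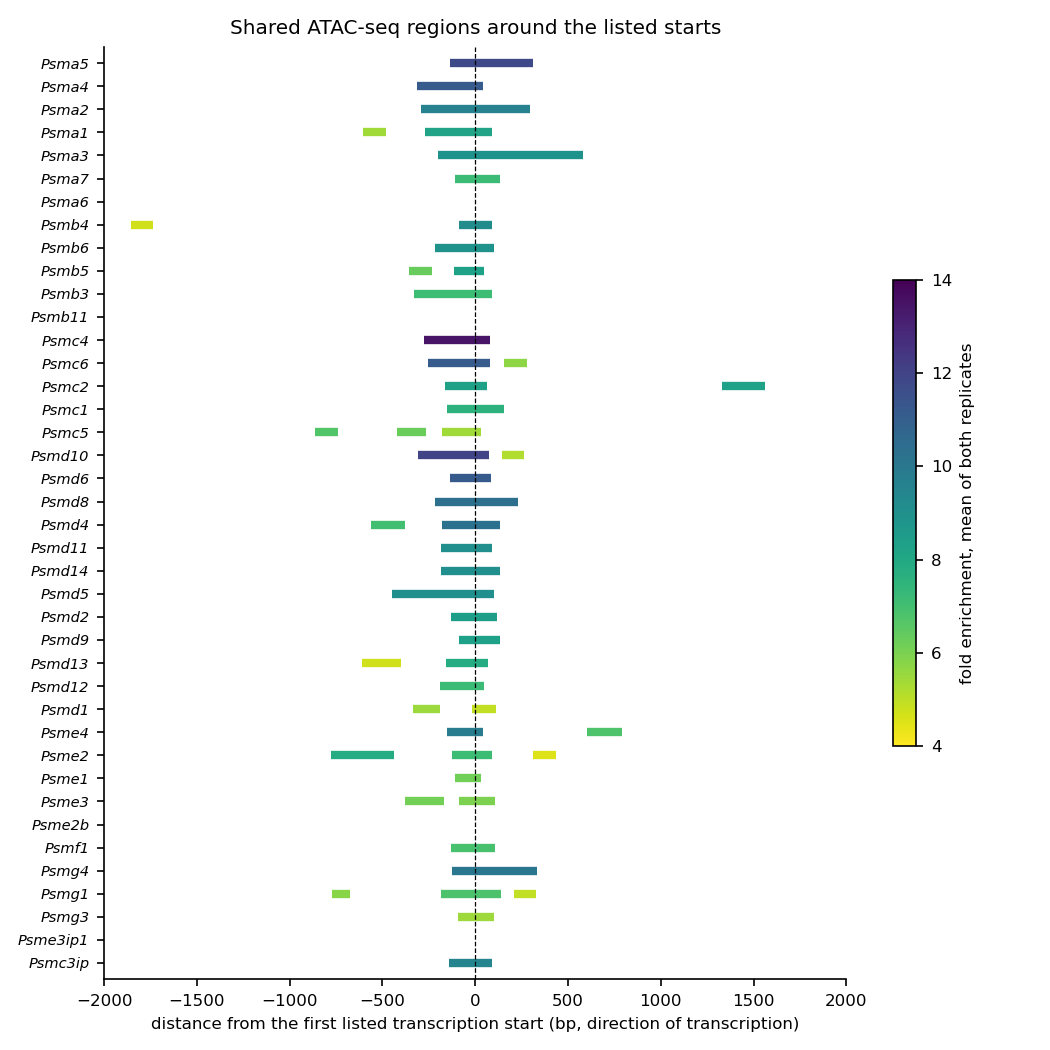
Shared regions within 2 kb of the first listed start of 40 proteasome genes, as bars along the distance in bp in the direction of transcription, coloured by the mean fold enrichment of both replicates. In most members a bar crosses the start, and Psma6 and Psme3ip1 are empty because their accessible start is another listed start, while Psmb11 and Psme2b have none.

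The letters of the promoters were compared over the window from 250 bases before to 50 after each listed start, in 44 windows of 40 members. Psma8, Psmb1, Psmb2, Psmb7, Psmc3, Psmd3, Psmd7 and Psmg2 were not in the table. Each motif was searched on both strands, and a window counted once however many matches it held. The comparison was with 21045 windows of coding genes, of which 9975 had a shared region within 1 kb of the start. The members' windows were not limited in this way. They include windows without such a region, at Psmb11, Psme2b, the outer start of Psma6 and the inner start of Psme3ip1. No test was made, and a match is a run of letters, not a bound site.

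Matches to CCGGAAG, the motif of ETS factors, were further above the share in accessible coding genes, in percentage points, than those of any other motif searched. They were in 38.6% of the members' windows, in 20.9% of windows of accessible coding genes, in 11.7% of all coding windows and in 3.40% of windows without a shared region. The 16 genes were Psma6, Psmc1, Psmc2, Psmc6, Psmd2, Psmd4, Psmd6, Psmd11, Psmd12, Psmd13, Psme3, Psme4, Psmg1, Psmg3, Psmc3ip and Psme3ip1. Among them are 3 of 5 ATPase genes, 6 of 12 other genes of the regulatory particle, and none of the 5 beta ring genes in the table. Psma6 was the only alpha ring gene of 7. These counts by role are small and were not tested.

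The 22 matches began at -132 to 17 bases from the start, and 13 of the 16 genes had a match within 60 bases of it. CCAAT matches lay that near in 11 of 15 member genes, and GGGCGG matches in 14 of 23. Positions in other coding genes were not examined. Besides Psmd11 and Psmd12, printed above, ETS matches lay at -6 in Psmd13, -24 at the inner start of Psmc2, -26 in Psmd2 and -28 in Psmc1. Fold enrichment was similar with and without a match. The 15 members with a match and an end region had medians of 8.51 and 8.90, and the 21 without a match had 8.67 and 8.61.

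AAGATGG, the YY1 motif, was in 18.2% of the members' windows against 7.47% of accessible and 6.28% of all coding windows, in 8 genes. In Psma2, Psmb6, Psmc1 and Psmc5 it lay just after the start, as the letters printed for Psmc4 lie before it. GAAANNGAA, the core of the interferon-stimulated response element, was in 15.9% against 7.22% and 8.10%. Its 7 genes were Psmb3, Psmb4, Psmc2, Psmd4, Psmd9, Psmg4 and the interferon-inducible Psme1, while the interferon-inducible Psme2 had no match. The counts for YY1 and for this element are small, 8 and 7 windows of 44.

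The general promoter boxes were about as frequent as in other accessible genes, or less so. GGGCGG, for SP and KLF factors, was in 54.5% of the members' windows against 67.0% of accessible coding windows. CCAAT, for NF-Y, was in 34.1% against 39.9%. GCATGCGC, for NRF1, was in 6.82% against 5.95%, in Psma2, Psmc5 and Psmg1, and because its inner letters read the same on both strands the longer run printed for Psma2 counts on each strand. CACGTG, the E-box, was in 9.09% against 10.6%, and TGACGTCA, for CREB and ATF factors, in 0 windows against 3.60%.

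TGACNNNGC, the pattern bound by NFE2L1 and NFE2L2 with their partners, was in 13.6% of the members' windows, against 14.8% of accessible and 13.0% of all coding windows. The genes were Psmb5, Psmb6, Psmc6, Psmd9, Psmd12 and Psme4. In Psmb6 it ends at the base before the start, and in Psmd9 it overlaps a GGGCGG match on the opposite strand. GAGGAAG, for the myeloid factor PU.1, was in 15.9% against 13.1%, and TATAAA in 6.82% against 6.01% of accessible and 18.7% of other coding windows, in Psmb4, Psmd1 and Psmd6.

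Base composition was that of CpG-rich promoters. The members' windows had a median C+G content of 58.2% and a ratio of observed to expected CpG of 0.764. Accessible coding windows had 61.7% and 0.798, and coding windows without a shared region had 51.0% and 0.274. The members thus lay near the accessible genes in CpG and somewhat below them in C+G.

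**Figure D3:**
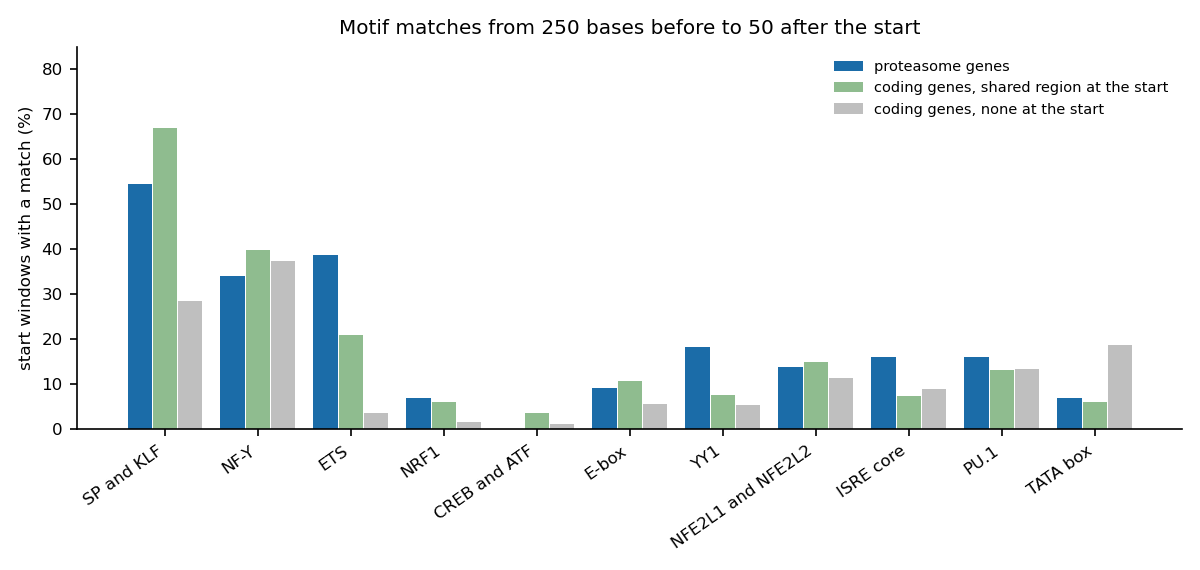
Percentage of promoter windows, from 250 bases before to 50 after the start, with at least 1 match to each motif, for proteasome genes (44 windows), coding genes with a shared region at the start (9975) and coding genes without (11070). ETS matches are at 38.6% in proteasome genes against 20.9% and 3.40%, and SP and KLF matches at 54.5% against 67.0% and 28.4%.

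Many members lie close to another gene, so that an end region can belong to either. Another coding gene had an end within 1 kb of an end of 19 of the 48 members (39.6%), against 25.1% of coding genes. Members had an end region as often with such a neighbour (89.5% of 19) as without (89.7% of 29). In all coding genes the shares were 73.1% and 39.4%. The members' high share was as large in those with no such neighbour.

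The surroundings were described through all shared regions inside each gene or within 50 kb of its ends. All 48 members had at least 1, against 79.5% of coding genes, and together they had 297. Of these, 64 lay at an end of a member, 87 at an end of other coding genes only, and 146 elsewhere. Counting only regions centred 1 to 50 kb from an end, the median was 5 per member and 4 per coding gene.

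The fullest window was that of Psme2, with 13 shared regions, followed by Psme1, Psmc1 and Psmd8 with 12 each. Psme1 and Psme2 lie next to each other with Rnf31 and Irf9, the gene of an interferon-signalling factor, and the 12 regions of Psme1 all count for Psme2 as well. In Psme2, 8 of the 13 were at ends of other genes. Psmc1 differed, since 9 of its 12 regions were at no coding gene end, among them a region inside the gene at chr12:100115980-100116348 with 7.17 and 11.3.

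Psmb5, Psmb11 and Psmd13 had 11 each. The strongest of the 11 beside Psmb5 and Psmb11 was a region at chr14:54603108-54603618 with 10.9 and 13.4, at no coding gene end. Psma6 had 10 shared regions, all of them away from the outermost ends of coding genes. The emptiest windows were those of Psmd14 and Psmf1, with 1 shared region each, and of Psma5, Psmc4 and Psmd10, with 2. Psma5, Psmc4 and Psmd10 were thus among the most enriched members and among those with the fewest regions around them. Other members differed, such as Psmd8, with 10.1 and 10.6 and 12 regions in its window. Enrichment and number of regions were not compared over all members.

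Some genes also had shared regions inside them and away from their ends and starts. Psme4 had one with 8.95 and 10.1 at chr11:30786645-30786852, and Psmb2 one with 7.76 and 8.34. Psme3ip1 had a pair, with 10.4 and 9.38, and with 7.65 and 7.65. Psma6 also had a pair, the region of 10.4 and 11.7 given above and a weaker one with 4.23 and 4.73, and Psmc1 had the region already described. Psma2, Psmb7, Psmd9 and Psma8 also had such regions, with values of 5.86 to 7.76 in replicate 1. Exons and introns were not assigned.

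**Figure D4:**
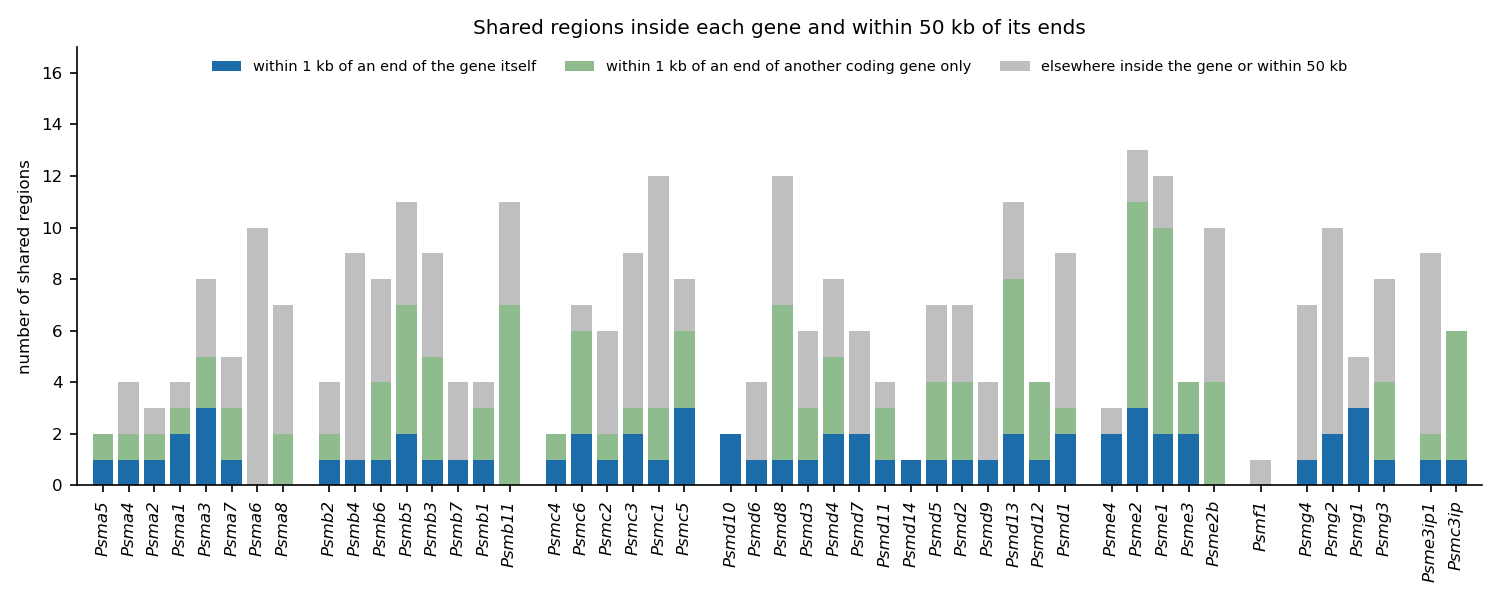
Number of shared regions inside each proteasome gene or within 50 kb of its ends, stacked by place: at an end of the gene itself, at an end of another coding gene only, or elsewhere. Totals run from 1 in Psmd14 and Psmf1 to 13 in Psme2, and regions counted for Psmb5 and Psmb11, and for Psme1 and Psme2, are the same ones in part or whole.

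Most peaks in these windows were found in both replicates. In replicate 1, 311 of 346 peaks were shared (89.9%, exact 95% interval 86.2 to 92.9), against 90.0% of all its peaks. In replicate 2, 298 of 361 were shared (82.5%, 78.2 to 86.3), against 76.4% of all its peaks. The intervals cover counting error only and take neighbouring peaks of 1 library as independent, which they need not be. They are not a test against all peaks.

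The peaks of 1 replicate alone were weak. The 35 of replicate 1 had a median fold enrichment of 5.37 and 12 reads, and the 63 of replicate 2 had 4.81 and 16 reads. At the members' own ends there were 3 in replicate 1, at Psmb3, Psme3 and Psmd7, and 11 in replicate 2, at Psma1, Psma3, Psma4, Psma7, Psmd10, Psmd14, Psme1, Psme2 and Psme4. Each of these genes also had a shared end region, so none of them depended on a peak of 1 replicate. Psma3 had 7 peaks in its window in replicate 2 alone and Psmd14 had 6, in the library with the higher genome background, 1.28 reads per position against 0.676, and the part of that depth in the difference was not tested.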

How the data were processed

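Open chromatin was measured by ATAC-seq in 2 samples, whose peak lists the authors deposited separately. Nothing in the labels says that the replicates were separate cultures, so their spread may be technical. Tools named in the submitters' processing notes are MACS2, HOMER 4.9.1, BWA 0.7.17, Trimmomatic and Picard 2.8.1, with the build mm10. Their roles, the read shift, duplicate removal and the threshold are not given in the sources used here. Each bears on which weak peaks appear. The deposited fold enrichment is a ratio of reads at the summit to local background, each with 1 added. The authors' −log10 p and −log10 q columns rate the excess over that background, and the deposited score is −log10 q times 10. These are the authors' values and were used only within a list.

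Summits of a peak were joined, keeping the highest score. Reads per summit were recovered from fold and −log10 p, within 0.002 for 100% of summits; 13 summits of replicate 1 had no position. Genes are RefSeq of GRCm38.p6, on the chromosomes of mm10, and promoters are its listed starts. The members, the gene lists and the motifs were chosen with earlier results of these data known. The named genes are the highest and lowest of each role, every member without an end region, the fullest windows, members that share regions and those with peaks of 1 replicate at an end; others are named for completeness. Alternatives changed the overlap, score, window, assignment and members. Python 3.11.15, numpy 2.4.6, pandas 2.3.3, scipy 1.17.1 and matplotlib 3.10.9 were used, and the overlap code was tested on simulated data.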

Additional observations from a re-analysis of the deposited data

How the results depend on the processing

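The number of members with a shared region at an end was 43, and it stayed at 39 to 44 under the other settings tried on all members, except the better-scoring 50% of each list, where it was 33, or 68.8% of members against 34.8% of coding genes. Leaving out either replicate gave 43 and 43. The genes lost with the better-scoring peaks were Psmb1, Psmb7, Psmc5, Psmd1, Psmd2, Psmd11, Psmd12, Psme3, Psmg1 and Psmg3, and a reciprocal overlap of 50% lost Psmd2, Psmd12, Psmd14 and Psmg4. With the reciprocal overlap the median fold enrichment rose to 8.86 in replicate 1 and fell to 8.72 in replicate 2. It was 8.90 and 9.44 with the better-scoring peaks, where lower-scoring peaks are left out by construction. The shared percentage of peaks fell to 78.0 and 74.8 with the reciprocal overlap and to 79.9 and 76.4 with the better-scoring peaks, and was 92.9 in replicate 1 with a flank of 20 kb. The median of 5 regions at 1 to 50 kb was the most dependent on the setting: it was 2 with the better-scoring peaks, 6 to 7 without replicate 1 or 2, 7.5 with the union of both replicates, 2 and 10 with flanks of 20 and 100 kb, and 0 when each region went to its nearest gene end. Leaving out Psmc3ip, Psme3ip1, Psma8 and Psmb11, chosen after seeing the data, gave 41 of 44. Regions were placed by their centre in the distal count already, so that alternative was not distinct there. No paired analysis was possible because the lists used belong to 1 group and no test was made. Depth limits all absences: sites with fewer than 7 or 9 reads at the summit are not listed.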
